A study of Homo sapiens with 6 samples.

Results

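The genes described here build ribosomes: factors that transcribe ribosomal RNA with RNA polymerase I, guide its chemical modification, cut and fold it, and assemble it with proteins into the 2 ribosomal subunits. They were chosen by name, as a list of 40 symbols, with earlier results of these data known. Of the 40, 39 had a row among the 24726 probe sets of the array table. Of these 39, GEO's probe annotation named 37, and GNL3 and EBNA1BP2 were matched through the gene ID in the row name. PPAN had no row in the table used here. The arrays came from 6 tumours of the human hepatocellular carcinoma line Huh7, which were grown under the skin of nude mice. The 3 IR-A tumours came from cells stably transfected with pRcCMVi.hIR-A(GFP), a plasmid that drives isoform A of the human insulin receptor from a CMV promoter and carries a green fluorescent marker. The 3 control tumours came from cells with the empty vector, and both cell populations had been selected for G418 resistance and sorted for GFP. The labels give no age of the mice, no time of harvest, no batch and no link from tumour to mouse or culture. The p-values therefore cover the spread among these 6 tumours alone, and that spread may be technical.

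Ribosome assembly starts in the nucleolus, where RNA polymerase I copies the repeated ribosomal RNA genes into a long precursor. Small nucleolar RNAs (snoRNAs), each bound by a small set of core proteins, mark the positions of methyl groups and pseudouridines, while large complexes of processing factors cleave the precursor and separate the small (40S) from the large (60S) subunit. Insulin and growth factor signalling is known to stimulate this program, and the transcription factor MYC is known to activate many of its genes by way of E-box motifs near their start sites.

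Values are log2 signals, so a difference of -1 is a halving, and no level is set against that of another gene. INSR, the gene of the plasmid, separated the groups (control tumours 1 to 3 at 8.04, 7.61 and 8.47, IR-A tumours 1 to 3 at 10.65, 11.31 and 11.01), as the labels say. Its difference was 2.95 (SE 0.26, adjusted p = 0.0769 in limma), so INSR too missed the adjusted threshold of 0.05. The hepatocyte markers ALB (control 12.93 ± 0.11 and IR-A 13.03 ± 0.05, SD, n = 3 each) and AFP (control 12.56 ± 0.18 and IR-A 12.66 ± 0.07) had strong signal in all tumours. Not every marker of that list did, as KRT8 had means of 6.54 in control and 6.25 in IR-A tumours. Control tumour 2 correlated less with the other controls across probe sets (r = 0.982 and 0.981) than with the IR-A tumours (0.984 to 0.989). Over the ribosome biogenesis genes it nevertheless lay with its group, as described below. All 39 genes had a mean signal above that of the median probe set (4.71), the lowest at 5.72.

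Ribosome biogenesis genes had lower signal in IR-A tumours almost throughout. The difference, IR-A mean minus control mean, was below 0 in 38 of 39 genes, against 56.0% of all probe sets. Its median was -0.50, or 1.41-fold more signal in control tumours, against -0.03 over all probe sets. In 28 of 39 genes all 3 IR-A tumours lay below all 3 controls, which was so in 9.45% of all probe sets. In 1 gene, RRN3, they lay above, as in 7.73% of probe sets. At an unadjusted limma p under 0.05, 29 of 39 genes were lower (7.03% of probe sets) and 0 of 39 higher (7.1%). A fold of 1.5 or more separated 13 genes, all lower in IR-A tumours, against 3.03% of probe sets. After Benjamini-Hochberg adjustment over all probe sets in limma, 0 of 39 genes passed 0.05 in either direction, beside 0% of probe sets lower and 0% higher, and the lowest adjusted p among the 39 was 0.147.

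These counts moved with single tumours. Leaving out control tumour 2 left 24 genes lower at an unadjusted p under 0.05, beside 10.7% of probe sets, and 1 gene, FBL, then passed the adjusted threshold (adjusted p = 0.0499, limma) beside 0.449% of probe sets. Without control tumour 1, IR-A tumour 1 or IR-A tumour 2 the count at an unadjusted p under 0.05 was 18, 19 and 18 of 39, beside 4.61%, 4.64% and 5.2% of probe sets lower. The median difference ran from -0.40 (without control tumour 1) to -0.64 (without IR-A tumour 3). With arrays of bulk tumour RNA, fewer cells with an active nucleolus and less RNA per cell cannot be told apart.

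Many of these genes share a promoter feature that the choice by name did not use. The E-box CACGTG, a palindrome that reads the same on both strands, was searched from 250 bases before to 50 bases after each start in the RefSeq promoter table (GRCh38.p14), which holds 34 of the 40 genes, PPAN included. Of these 34 genes, 17 (50%) had a match in at least 1 listed promoter, against 8.77% of the 27305 genes of the table and 12.8% of measured genes above the median probe set. Counted per promoter, 18 of 43 held it, against 7.26% of all 35116 promoters. In all 17 genes a match began within 50 bases of a listed start, whereas 40.0% of all genes with a match had it so close. Among other ribosome biogenesis genes 23.3% held the motif, as did 4 of 17 proliferation genes (23.5%) and 6.0% of ribosomal protein genes. Base composition was similar to that of other measured genes, with a median GC content of 64.0% in these promoters and 64.7% in those of measured genes above the median probe set. The differences covered overlapping ranges with and without the motif. Genes with it had a median difference of -0.51 (range -0.93 to -0.38, n = 17) and genes without it -0.46 (range -0.99 to 0.29, n = 16). Over all measured genes of the promoter table, the median was -0.02 with the motif (983 of 1797 below 0). Without it the median was also -0.02 (8422 of 15564 below 0). Whether the motif had a part in the members' differences was not tested.

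The stretches from 50 bases before the start to 50 after it are shown for the 3 genes of smallest limma p with a match, to show where the E-box lies. The capitals mark it, and each strand is that of the gene. It begins 6 bases after the start in FBL (chr19:39846330-39846429, minus strand), 15 before it in NAT10 (chr11:34105579-34105678, plus strand) and 13 after it in PES1 (chr22:30591861-30591960, minus strand).
FBL: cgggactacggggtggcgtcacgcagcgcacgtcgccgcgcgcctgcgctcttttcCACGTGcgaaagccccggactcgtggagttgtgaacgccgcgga
NAT10: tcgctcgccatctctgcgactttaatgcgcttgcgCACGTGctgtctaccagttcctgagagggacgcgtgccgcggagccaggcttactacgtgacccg
PES1: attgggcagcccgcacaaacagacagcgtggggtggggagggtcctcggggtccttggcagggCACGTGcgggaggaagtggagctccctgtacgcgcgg

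**Figure D1:**
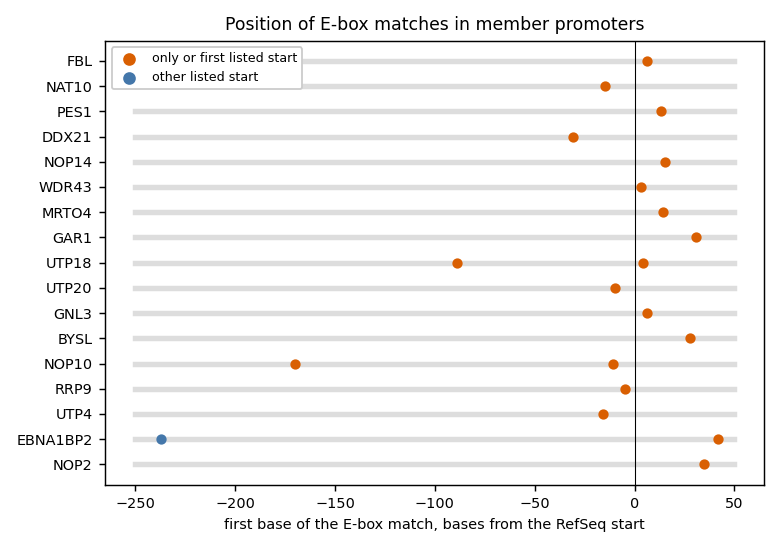
The horizontal axis gives the first base of each E-box match relative to the RefSeq start, and each row is a gene with at least 1 match in the window from 250 bases before to 50 bases after the start (grey bar). Every one of the 17 genes has a point within 50 bases of the start; UTP18 and NOP10 have a second match farther upstream, and EBNA1BP2 has one before its other listed start.

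The box C/D snoRNPs, which add methyl groups to ribosomal RNA, are built on 3 of the genes, and all 3 had lower signal in IR-A tumours. Fibrillarin, FBL, the methyltransferase itself, read 10.23, 9.72 and 10.11 in control tumours 1 to 3 and 8.99, 9.22 and 9.37 in IR-A tumours 1 to 3. The groups did not overlap, and the gap of 0.35 between them was larger than the SD of either group (0.27 and 0.19). The difference was -0.83 (SE 0.17, 95% interval -1.23 to -0.43, adjusted p = 0.147). NOP58, a scaffold of the particle, differed by -0.65 (SE 0.20, adjusted p = 0.235) with separate groups. Its partner NOP56 differed by -0.43 (SE 0.19, adjusted p = 0.398), and there IR-A tumour 3 (10.11) just overlapped control tumour 3 (10.10).

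The core of the box H/ACA snoRNPs, which convert uridine to pseudouridine, consists of 4 of the genes. All 4 had separate groups with IR-A lower, beside 9.45% of all probe sets. NHP2, an RNA-binding core protein, read 7.49, 7.54 and 7.43 in control and 6.94, 6.67 and 7.17 in IR-A tumours. The controls lay within 0.12 of each other and the IR-A tumours were more spread, with a difference of -0.56 (SE 0.14, 95% interval -0.89 to -0.23, adjusted p = 0.181). Dyskerin, DKC1, the pseudouridine synthase, differed by -0.67 (SE 0.21), GAR1, which helps the substrate bind and leave, by -0.45 (SE 0.14), and NOP10, the smallest core protein, by -0.38 (SE 0.15). In DKC1 the lowest control and the highest IR-A tumour were 0.036 apart, so the separation was narrow.

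Of the 5 abundant nucleolar proteins that follow, all were lower at an unadjusted p under 0.05, beside 7.03% of all probe sets. NOLC1, a chaperone that carries snoRNPs to the nucleolus, had the smallest p of all 39 genes. It read 9.04, 8.70 and 8.80 in control and 8.06, 7.95 and 8.32 in IR-A tumours, a difference of -0.74 (SE 0.14, 95% interval -1.08 to -0.40, adjusted p = 0.147). DDX21, an RNA helicase of ribosomal RNA transcription and processing, read 9.98, 9.36 and 9.44 in control and 8.70, 8.57 and 9.04 in IR-A tumours. Its difference was -0.82 (SE 0.20, adjusted p = 0.179), with control tumour 1 highest and the groups apart by 0.32. The other 3 differed less. Nucleolin, NCL, a histone and RNA chaperone, differed by -0.30 (SE 0.10), and nucleophosmin, NPM1, which shuttles ribosomal particles, by -0.34 (SE 0.14), both with separate groups. Nucleostemin, GNL3, a GTPase of proliferating cells, differed by -0.48 (SE 0.18), and its IR-A tumour 3 (9.05) lay above control tumour 3 (9.01). The RefSeq gene table lists 50 named pseudogenes of NPM1, so the source of its signal is uncertain.

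RNA polymerase I transcription had the smallest shift of the roles, with a median of -0.19 over its 5 genes. Of these, 1 was lower at an unadjusted p under 0.05, beside 7.03% of all probe sets. That gene was POLR1B, the second largest polymerase subunit, at 6.49, 6.14 and 5.85 in control and 5.67, 5.22 and 5.85 in IR-A tumours (difference -0.58, SE 0.22, adjusted p = 0.318). Its groups were separate by 0.001 only, between control tumour 3 and IR-A tumour 3. The catalytic subunit POLR1A differed by -0.30 (SE 0.15), the promoter-binding factor UBTF by -0.19 (SE 0.10) with separate groups, and treacle, TCOF1, which supports ribosomal RNA transcription, by -0.15 (SE 0.12). RRN3, the initiation factor that brings the polymerase to the promoter and that growth signals are known to regulate by phosphorylation, was the 1 gene with a positive difference. It read 6.99, 7.27 and 7.39 in control and 7.48, 7.48 and 7.58 in IR-A tumours, a difference of 0.29 (SE 0.12, 95% interval -0.01 to 0.59, adjusted p = 0.363). The gap of 0.085 between the groups was smaller than the control SD of 0.21. The 4 named pseudogenes of RRN3 make the source of its signal uncertain. The same doubt holds for NOP56, WDR12 and NIP7 (3 named pseudogenes each), NHP2, NCL and PES1 (2 each), and FBL and NOLC1 (1 each).

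The small subunit is first shaped by a large particle on the nascent transcript. In all, 13 of the genes act at early or late steps of making this subunit, 5 of them in the UTP-A complex, which binds the precursor first. All 13 differences were below 0, with a median of -0.51, and 11 were lower at an unadjusted p under 0.05 (7.03% of all probe sets). Of UTP-A, WDR43 read 9.00, 8.36 and 8.43 in control and 7.92, 7.73 and 8.04 in IR-A tumours (difference -0.70, SE 0.19, adjusted p = 0.206). Its partners WDR75 (-0.55, SE 0.19), HEATR1 (-0.49, SE 0.17) and UTP4 (-0.39, SE 0.19) also had separate groups. UTP15 was the exception. It read 7.46, 7.92 and 6.76 in control and 7.54, 6.85 and 7.42 in IR-A tumours, with a difference of -0.11 (SE 0.32, 95% interval -0.88 to 0.66), and its sign turned to 0.16 without control tumour 2 and 0.10 without IR-A tumour 2.

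Among the other small subunit factors, NAT10, which acetylates cytidines of 18S ribosomal RNA, had the largest difference. It read 8.79, 8.08 and 8.09 in control and 7.43, 7.21 and 7.51 in IR-A tumours, and the groups were 0.57 apart, the widest gap of the 39 genes. Its difference was -0.93 (SE 0.21, 95% interval -1.44 to -0.43, adjusted p = 0.163), or 1.91-fold. NOP14, a component of the processing particle, read 9.24, 8.90 and 8.92 in control and 8.54, 8.49 and 8.66 in IR-A tumours (difference -0.46, SE 0.12, adjusted p = 0.205). RRP12, an export factor of pre-ribosomes, read 7.30, 6.95 and 7.60 in control and 6.66, 6.41 and 6.75 in IR-A tumours (difference -0.67, SE 0.18, adjusted p = 0.212). In all 3 genes the IR-A tumours were less spread than the controls. NOB1, the nuclease that makes the final cut of 18S ribosomal RNA, read 9.77, 9.35 and 9.64 in control and 9.04, 9.21 and 9.16 in IR-A tumours (difference -0.45, SE 0.13, adjusted p = 0.221). The processing factors UTP20 (-0.51, SE 0.18) and UTP18 (-0.41, SE 0.13) also had separate groups. BYSL, a late assembly factor, differed by -0.81 (SE 0.32) and RRP9, a protein of the U3 snoRNP, by -0.53 (SE 0.22), and in both IR-A tumour 3 lay above the lowest control.

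**Figure D2:**
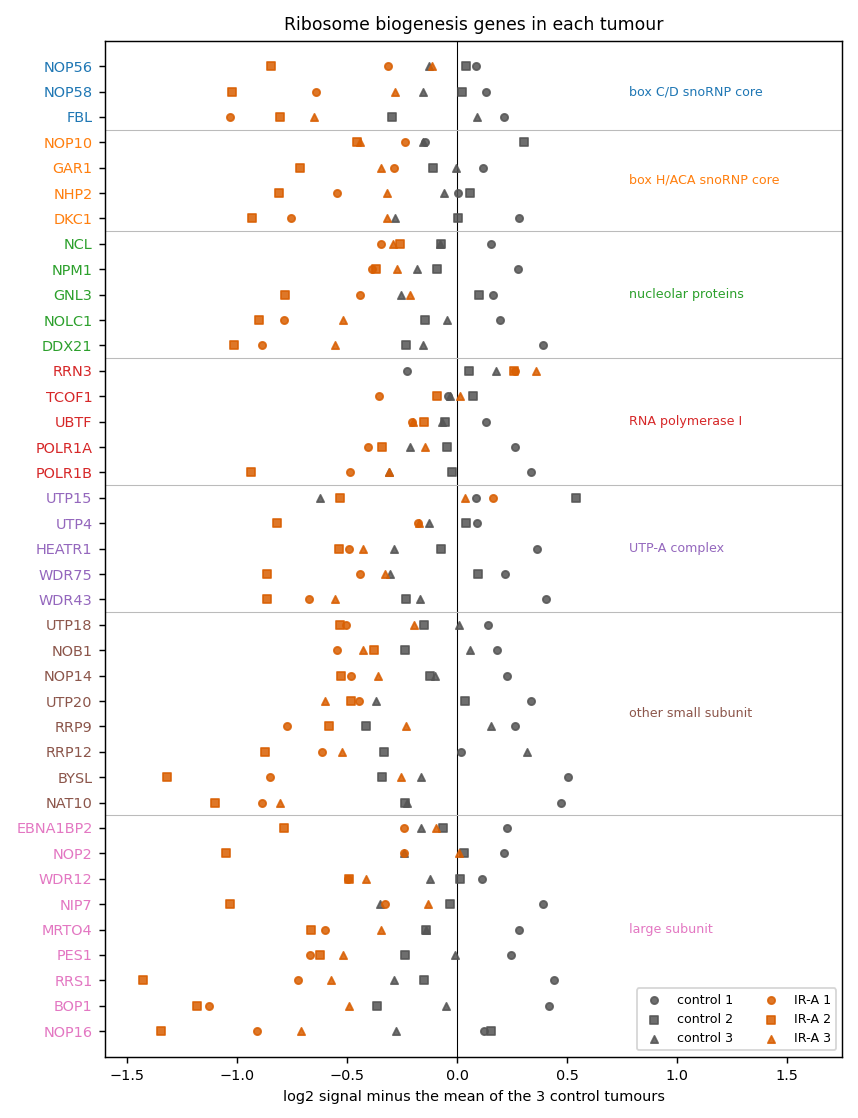
The horizontal axis gives the log2 signal of each tumour minus the mean of the 3 control tumours, and each row is a gene, grouped by role. Control tumours (grey) spread around 0 with control tumour 1 mostly at the right, and IR-A tumours (orange) lie to the left in most rows with IR-A tumour 2 farthest; RRN3 is the row where all 3 IR-A tumours lie to the right of the controls.

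The large subunit factors had a median difference of -0.54 over 9 measured genes, all below 0. Of these, 6 were lower at an unadjusted p under 0.05, beside 7.03% of all probe sets. NOP16 had the largest difference of the 39 genes. It is a nucleolar protein of 60S assembly and read 8.06, 8.09 and 7.66 in control and 7.03, 6.59 and 7.22 in IR-A tumours, a difference of -0.99 (SE 0.20, 95% interval -1.46 to -0.52, adjusted p = 0.147), or 1.98-fold. PES1, BOP1 and WDR12 form the PeBoW complex, which is needed for 28S and 5.8S ribosomal RNA maturation, and all 3 had separate groups. PES1 read 6.86, 6.38 and 6.61 in control and 5.95, 5.99 and 6.10 in IR-A tumours (difference -0.60, SE 0.14, adjusted p = 0.165). BOP1 read 7.28, 6.50 and 6.82 in control and 5.74, 5.69 and 6.38 in IR-A tumours (difference -0.93, SE 0.26, adjusted p = 0.212). WDR12 read 8.92, 8.82 and 8.68 in control and 8.31, 8.31 and 8.39 in IR-A tumours (difference -0.47, SE 0.10, adjusted p = 0.154). WDR12 had narrow groups, while BOP1 had wide ones.

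MRTO4, which holds a place on the pre-60S particle for a later ribosomal stalk protein, read 7.57, 7.15 and 7.15 in control and 6.68, 6.62 and 6.94 in IR-A tumours (difference -0.54, SE 0.16, adjusted p = 0.221). RRS1, which helps to bring the 5S ribosomal RNA particle in, differed by -0.91 (SE 0.28), with IR-A tumour 2 (5.61) far below the other 5 tumours (6.31 to 7.47). In 3 more genes the groups overlapped. The ribosomal RNA methyltransferase NOP2 differed by -0.43 (SE 0.28), NIP7, a pre-ribosomal binding protein, by -0.50 (SE 0.28), and EBNA1BP2, a 60S scaffold factor, by -0.37 (SE 0.20). In each of these 3, IR-A tumour 2 was the lowest tumour and IR-A tumour 3 lay above control tumour 3.

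**Figure D3:**
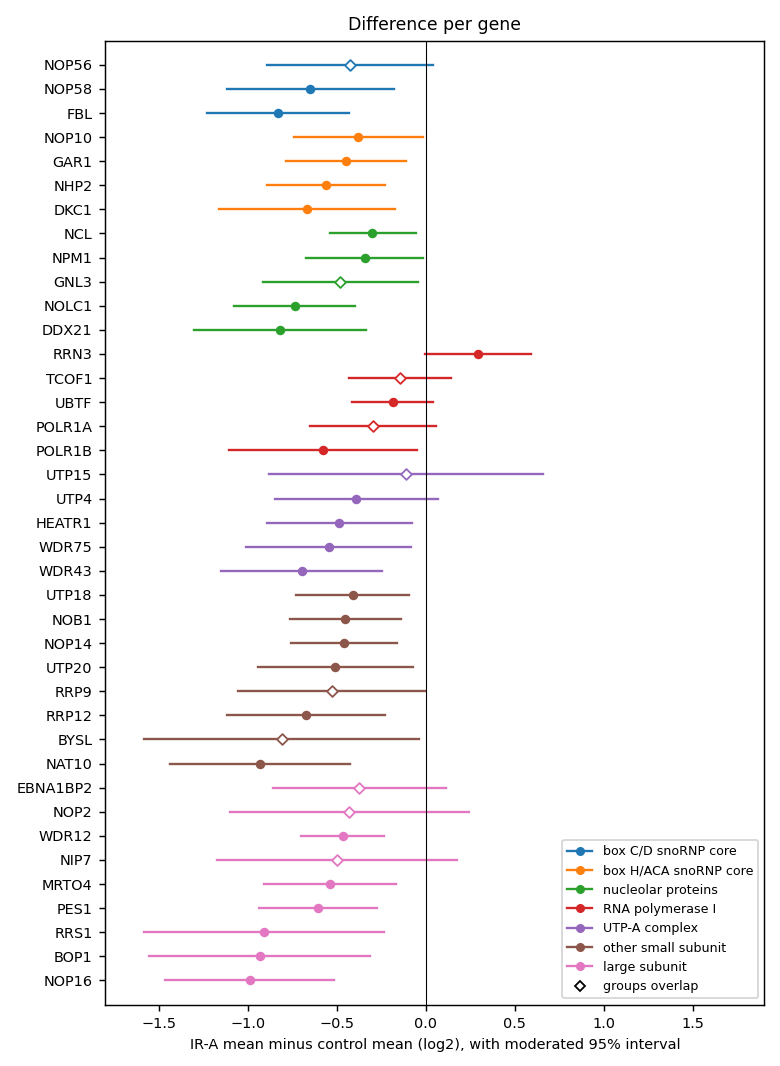
The horizontal axis gives, as points, the log2 difference of IR-A from control tumours, and as bars limma's moderated 95% interval, and each row is a gene, coloured by role; open diamonds are genes whose groups overlap. Of the 39 intervals, 29 lie below 0 and none above it, and UTP15 (-0.11) lies closest to 0.

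The tumours at both ends were mostly the same over these genes, while the full order of the 6 was not. Control tumour 1 was the highest of the 6 in 32 of 39 genes, and IR-A tumour 2 was the lowest in 26. Taken as the median deviation from each gene's control mean, control tumours 1 to 3 lay at 0.21, -0.06 and -0.16, and IR-A tumours 1 to 3 at -0.49, -0.79 and -0.32. IR-A tumour 3 was thus nearest to the controls, and it was the highest of its group in 32 genes. Control tumour 2, which stood apart over all probe sets, lay between the other controls in this median, but it was the lowest control in 15 genes and control tumour 3 in 22. The full order of the 6 medians was found in 7 of 39 genes (17.9%), beside 0.793% of all probe sets, but that order was taken from these same genes.

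Several of the genes carry snoRNA genes inside them, which are released from their introns. By RefSeq positions, 22 snoRNA genes lie within 6 of the 39 genes, and 14 of them, in 5 host genes, were measured. All 14 had lower signal in IR-A tumours (median -0.76), beside 56.0% of all probe sets. At an unadjusted p under 0.05, 10 were lower (7.03% of probe sets), and 6 had separate groups (9.45%). Some were dim, with means below the median probe set (4.71) in both groups. These were SNORD19 (2.72 in control and 2.55 in IR-A tumours), SNORD19B (3.10 and 2.72), SNORD20 (3.76 and 3.02) and SNORD11B (4.10 and 3.29). Within NOP56, SNORD57 read 10.58, 10.35 and 10.80 in control and 7.87, 9.69 and 8.52 in IR-A tumours (difference -1.88, SE 0.43), SNORD110 differed by -0.97 (SE 0.31) and SNORD56 by -0.76 (SE 0.13), beside -0.43 for the host. Within NOP58, SNORD70 (-1.98, SE 0.66), SNORD11 (-1.91, SE 0.53) and SNORD11B (-0.82, SE 0.28) stood beside -0.65. Within WDR43, SNORD92 differed by -1.57 (SE 0.45) and SNORD53 by -0.28 (SE 0.24), beside -0.70. Within NCL, SNORD20 (-0.75, SE 0.23), SNORD82 (-0.33, SE 0.10) and SNORA75 (-0.28, SE 0.38) stood beside -0.30, and within GNL3, SNORD69 (-0.65, SE 0.23), SNORD19B (-0.38, SE 0.22) and SNORD19 (-0.17, SE 0.12) beside -0.48. The tumours were ordered differently in hosts and snoRNAs. IR-A tumour 2, mostly the lowest in the host genes, was the highest IR-A tumour in 12 of the 14 snoRNAs, and control tumour 2 was the lowest control in 11. This order was not particular to snoRNAs within the members. Mean levels in IR-A tumours 1 to 3 were 5.49, 5.87 and 5.6 over 222 box C/D RNAs. Over 89 box H/ACA RNAs they were 6.39, 7.16 and 6.67. In both of these larger lists control tumour 2 had the lowest mean of the controls. Whether a snoRNA differed from its host was not tested.

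**Figure D4:**
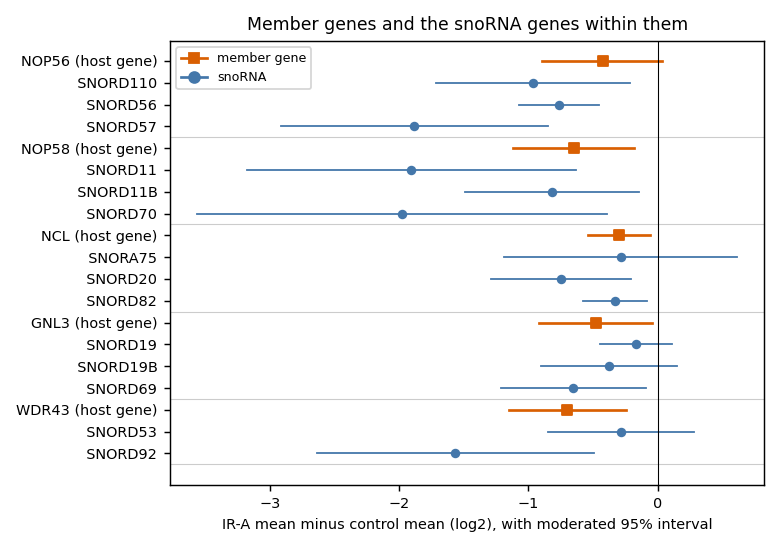
The horizontal axis gives the log2 difference of IR-A from control tumours with moderated 95% intervals for 5 member genes (orange squares) and the 14 measured snoRNA genes that lie within them (blue points). All points lie below 0, and SNORD57, SNORD11, SNORD70 and SNORD92 lie farther out than their host genes, with wide intervals.

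Other genes of the same pathway, from lists drawn up by name with earlier results of these data known, had lower signal as well. Of 120 measured genes in 5 lists, 109 had a difference below 0 (median -0.35), beside 56.0% of all probe sets. At an unadjusted p under 0.05, 47 were lower and 1 higher, beside 7.03% and 7.1% of probe sets. None, 0 of 120, passed the adjusted threshold in limma. In the RNA polymerase I machinery, 2 of 11 were lower, the polymerase subunit POLR1E at -1.10 (SE 0.18, adjusted p = 0.131) and the initiation factor subunit TAF1D at -0.55 (SE 0.19), while TAF1A, of the same factor, overlapped between groups (-0.62, SE 0.27). Small subunit factors had 13 of 41 lower and 1 higher, with NOL6 (-0.87, SE 0.17), WDR46 (-0.55, SE 0.10) and TRMT112 (-0.47, SE 0.10) of smallest p. Large subunit factors had 20 of 44 lower, with TEX10 (-0.82, SE 0.13), RPF2 (-0.69, SE 0.12) and NOC3L (-0.89, SE 0.17). Of snoRNP assembly factors 4 of 11 were lower, with the helicase RUVBL1 (-0.71, SE 0.16), the H/ACA assembly factor NAF1 (-0.43, SE 0.10) and the RNA-binding SNU13 (-0.53, SE 0.13). Of the RNA exosome and its cofactors, which trim ribosomal RNA precursors, 8 of 13 were lower, with the helicase MTREX (-1.23, SE 0.23), EXOSC4 (-0.73, SE 0.10) and EXOSC1 (-0.57, SE 0.16).

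MYC and its relatives regulate this gene program. Over 11 measured genes of the network the median was -0.05. At an unadjusted p under 0.05, 3 were lower and 1 higher, beside 7.03% and 7.1% of all probe sets. MYC read 8.08, 7.14 and 6.31 in control and 6.02, 5.60 and 6.19 in IR-A tumours, a difference of -1.24 (SE 0.43, adjusted p = 0.282). Control tumour 1 was highest and IR-A tumour 2 lowest. MYCN, its relative, read 7.33, 7.13 and 7.29 in control and 6.17, 6.07 and 6.93 in IR-A tumours (difference -0.86, SE 0.23, adjusted p = 0.200). MXD4, an antagonist of MYC, read 7.35, 7.57 and 7.26 in control and 7.70, 7.70 and 7.68 in IR-A tumours (difference 0.30, SE 0.11, adjusted p = 0.294). Its relative MXD3 went the other way (difference -0.348, SE 0.135), with every IR-A tumour lower. MXD1 (0.285, SE 0.168), MXI1 (-0.052, SE 0.381) and MNT (0.005, SE 0.185) had overlapping groups. MAX, the shared dimer partner, differed by -0.01 (SE 0.16). Whether MYC or MYCN levels had a part in the members' differences was not tested.

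Lists of growth and protein synthesis also had medians below 0. Proliferation genes had a median of -0.61. Of 20, 18 were lower at an unadjusted p under 0.05 and 15 had separate groups, beside 7.03% and 9.45% of all probe sets. The genes of smallest p were CCNB2 (-0.90), PLK1 (-0.95) and AURKB (-0.81), all regulators of mitosis. Their mean level ran from 8.84 to 9.09 in control and from 8.18 to 8.62 in IR-A tumours, and, as in the members' medians, control tumour 1 was highest and IR-A tumour 2 lowest. Genes of cytosolic ribosomal proteins had a median of -0.40, with 39 of 65 lower, box C/D RNAs a median of -0.54 with 105 of 222 lower and 1 higher, and box H/ACA RNAs a median of -0.48 with 34 of 89 lower. In the ribosomal protein genes the controls lay close together (mean levels 7.96 to 8.01), without the lead of control tumour 1. Whether the members differed more than these lists was not tested, and the part that proliferation had in the members' differences was not tested.

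Markers of other cells, which a tumour in a mouse could hold, and of hepatocytes were measured beside these genes. Mean levels of 9 endothelial markers ran from 3.89 to 4.04 in control and 3.91 to 3.97 in IR-A tumours. Of these, 0 were lower and 1 higher at an unadjusted p under 0.05, beside 7.03% and 7.1% of all probe sets. Mean levels of 9 macrophage markers ran from 4.59 to 4.90 and 4.82 to 5.00, with 1 lower and 2 higher. Fibroblast markers ran from 4.24 to 4.56 and 4.58 to 4.67, with 0 of 10 lower and 3 higher. Hepatocyte markers ran from 11.00 to 11.20 and 11.25 to 11.32, with 0 of 12 lower and 4 higher. In both of these lists every IR-A mean lay above every control mean, whereas the endothelial and macrophage means overlapped. Single markers differed more than these means. TYROBP, an immune receptor adaptor, differed by 1.78 (SE 0.29, adjusted p = 0.131 in limma) and CD68, a lysosomal protein of macrophages, by 0.62 (SE 0.21), both higher in IR-A tumours, whereas FCER1G, an Fc receptor subunit, differed by -0.60 (SE 0.19). Of the fibroblast list, the matrix proteoglycan LUM differed by 1.26 (SE 0.15, adjusted p = 0.106 in limma) and the collagens COL1A2 by 0.83 (SE 0.20) and COL1A1 by 0.40, all higher. In the endothelial list PECAM1 differed by 0.51, and in the hepatocyte list APOB by 0.42. Of these named markers, all but FCER1G had every IR-A tumour above every control, and FCER1G the reverse. Differences were below 0 in 3 of 10 fibroblast, 6 of 9 macrophage, 6 of 9 endothelial and 3 of 12 hepatocyte markers. ESAM of the endothelial list differed by -0.312 and KRT8 of the hepatocyte list by -0.285, both with overlapping groups. PDGFRA differed by -0.87 (SE 0.57) with overlapping groups, and FAP by -0.08 with every IR-A tumour lower. LUM had means of 2.98 in control and 4.24 in IR-A tumours, below the median probe set (4.71). So were PTPRC, MRC1 and CD14, with control means of 2.93, 2.89 and 3.30. These lists hold human genes, and how far mouse host RNA adds to their signals was not tested; their part in the members' differences was not tested.

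**Figure D5:**
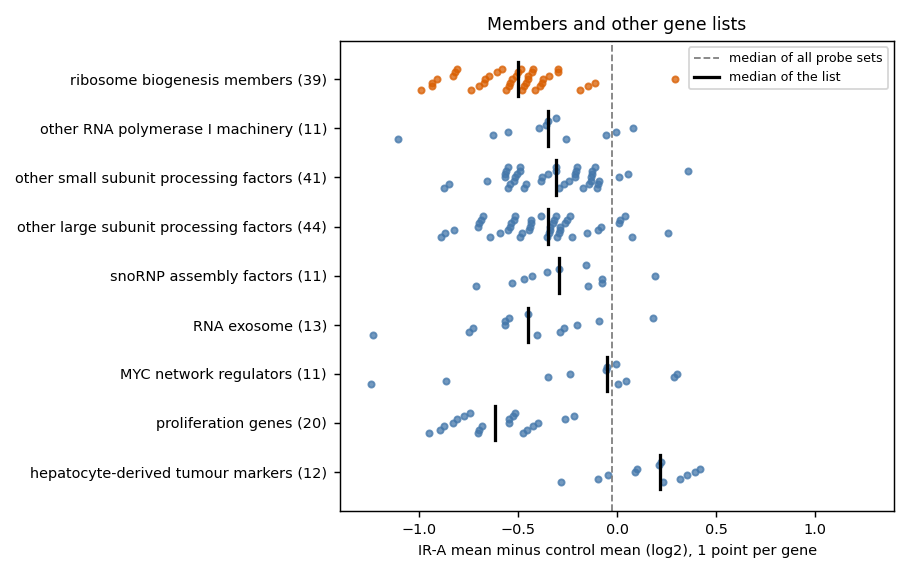
The horizontal axis gives the log2 difference of IR-A from control tumours, with 1 point per gene, a black bar for the list's median and a dashed line for the median of all probe sets (-0.03); the number of measured genes is in brackets. The members (orange) and the other ribosome biogenesis and proliferation lists lie mostly left of the line, MYC network regulators spread on both sides, and hepatocyte markers lie mostly to the right.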

How the data were processed

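The authors deposited log2 signals, 1 for each probe set of each array. The submitters' processing notes name RMA, a background correction with quantile normalization and summary of probes, and the Partek software, with no version. Array model, probe set definition and build: not given in the sources used here. RMA compresses differences of dim probe sets. Per the labels, RNA was extracted with Trizol and labelled with a whole-transcript kit. All row names of the 23934 annotated probe sets were the annotation's Entrez ID, so the 792 others were named through the RefSeq gene table (GRCh38.p14), which held 646 of them. For 3 symbols with several probe sets the brightest was kept.

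Groups were compared with limma 3.58.1 in R 4.3.3 (lmFit, eBayes) over all 24726 probe sets, with Benjamini-Hochberg adjustment. An exact permutation test of 3 against 3 cannot go below p = 0.1. The fit was tested on simulated data. Members and lists were chosen with earlier results of these data known. Values per tumour are given for members with an unadjusted p under 0.05 and separate groups, up to 14 by smallest p, and for the smallest p of each role; RRN3, UTP15 and single values of other members were chosen after their values were seen. Of each other pathway list, the 3 genes of smallest p are named. MAX, MXD1, MXD3, MXI1, MNT, ALB, AFP and the genes of the proliferation and cell marker lists were added after their values were seen. The strand of snoRNA genes was not checked, and protein sequences were not used here. Named pseudogenes of members were counted, and whether they share signal was not tested. Gene families were not otherwise checked for shared signal. No 2 arrays shared more than 4.15% of values. Python 3.11.15 with matplotlib 3.10.9 drew the figures.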

Additional observations from a re-analysis of the deposited data

How the results depend on the processing

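Differences of the 39 genes kept their sign in 543 of 546 refits, except UTP15 with array weights (0.009), without control tumour 2 (0.158) and without IR-A tumour 2 (0.101). With 1 tumour left out the difference of UTP15 ran from -0.422 to 0.158. The count of all probe sets called was 14 when the dimmest 25% of probe sets were dropped and 20 when 50% were, where fewer were tested, 11 with array weights, and 0 to 308 with 1 tumour left out (308 without control tumour 2). The count of members called ran from 0 to 1 with 1 tumour left out. INSR passed the adjusted threshold in limma without the dimmest 25% (adjusted p = 0.0471) or 50% (0.035) of probe sets. It also passed with array weights (0.048) and without control tumour 2 (0.0261). In the other refits INSR missed it, with an adjusted p of up to 0.407 in limma (without IR-A tumour 1). Members lower at an unadjusted p under 0.05 ran from 18 to 28 with 1 tumour left out, and 13 were lower by 1.5-fold. With the wider motif CANNTG, 82.4% of member genes had a match, against 73.1% of all genes. Quantile normalization, centring, trend and robust moderation, and leaving out GNL3 and EBNA1BP2 (added after the data were seen) moved no member count by over 1.5 times. With the replicate block, 24 members were lower at an unadjusted p under 0.05, beside 5.26% of probe sets, and 0 probe sets were called. Same-numbered tumours did not deviate together (r = -0.294, -0.358 and 0.0203), and the labels do not say that the numbers pair them. Protein features were not run. No background signal was at hand to judge single probe sets.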
